A study of Mus musculus with 18 samples.

Results

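Genes of the chromosome axis and the synaptonemal complex, 8 in number, were followed across the 18 libraries of a mouse spermatogenesis series: *Sycp1*, *Sycp2*, *Sycp3*, *Syce1*, *Syce2*, *Tex12*, *Hormad1* and *Hormad2*. They were taken by name and not by their values, though with earlier results of these data known. All 8 had a value in every library and were among the 14664 genes tested, of 16306 genes with any value. The libraries hold large RNA of the polysome fraction or the RNP (ribonucleoprotein particle) fraction. Each fraction was taken from spermatocytes at the pachytene stage, from round and from elongating spermatids, with 3 libraries for each of the 6 combinations. Every animal was a wild type adult of the C57BL/6 strain (C57BL/6 J in the study's methods), and no mutant or treated animal belongs to the series. The cells were separated by sedimentation (STA-PUT) from pooled testes in buffers with cycloheximide, which holds ribosomes on mRNA, and a sucrose gradient then separated light particles from polysomes. By the study's own morphology counts the elongating spermatids were the least pure of the 3 preparations. The labels do not say which libraries come from the same purification, so p-values measure the spread between these libraries, which may in part be technical.

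During meiotic prophase each pair of sister chromatids is organised as loops along a protein axis, and the axes of homologous chromosomes are zipped together by the synaptonemal complex. SYCP2 and SYCP3 form the axial or lateral elements, SYCP1 spans the gap between the axes as the transverse filament, and SYCE1, SYCE2 and TEX12 build the central element. HORMAD1 and HORMAD2 bind axes that are not yet synapsed and are largely removed when synapsis is complete. The complex is assembled before and during the pachytene stage and is taken apart before the meiotic divisions, so round and elongating spermatids have no such structure. Polysomal mRNA is the fraction under translation, and mRNA in light RNPs is largely held back from it.

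The unit used throughout is FPKM (sequenced fragments scaled to transcript length and to the size of the library) summed over the assembled transcripts that share a splice junction with the gene. It is per length of each assembled transcript, but a short partial transcript adds its FPKM in full, so levels of genes assembled in pieces are not strictly comparable with those of others. Libraries differed in how much of this sum other RNAs took: 1 short RNA gene, *AC154124.1*, held 10.8 to 59.9% of the summed gene FPKM in polysome libraries and 0.739 to 82.3% in RNP libraries. The marker lists followed the labels in part. Summed FPKM of 6 elongating spermatid markers (*Prm1*, *Prm2*, *Tnp1*, *Tnp2*, *Odf1* and *Akap4*) ran from 5615 to 31544 in elongating libraries, against 28.1 to 2484 in pachytene libraries. The sum of 6 pachytene markers did not separate the stages, at 318 to 839 in elongating and 101 to 1070 in pachytene libraries, where *Hspa2* was listed at 0 in all 3 polysome libraries. In pachytene replicates 1, 2 and 3, elongating spermatid markers summed to 1135, 28.1 and 320 in polysomes and to 2484, 43.9 and 662 in RNPs. The 8 Sertoli markers summed to 53.5, 143 and 191 in pachytene polysomes and to 32.5, 164 and 12.6 in pachytene RNPs. The 6 round spermatid markers summed to 501 to 1250 in elongating libraries and so did not mark round libraries alone. The 2 libraries labelled round replicate 2, polysome and RNP, went against their label. Their 6 round spermatid markers summed to 38.1 and 31.4, against 248 to 817 in the other 4 round libraries, while their 8 Sertoli markers summed to 343 and 124, against 2.64 to 31.2. Their 6 markers of early spermatocytes and spermatogonia, cells near the prophase stages in which these genes act, summed to 437 and 136, against 26.2 to 120.2. Their correlation with the other libraries of their groups was 0.48 to 0.62, against 0.65 to 0.88 for the 14 other pairs of replicates. In bulk RNA, fewer cells of a type and less RNA per cell cannot be told apart.

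*Sycp3*, the best-known component of the lateral element, lay higher in polysomes than in RNPs in every library of each stage. In pachytene spermatocytes it stood at 289, 495 and 595 FPKM in polysomes (replicates 1, 2 and 3, the order used for all values per library), against 95.4, 101 and 29.2 FPKM in RNPs. In round spermatids it stood at 128, 583 and 248 FPKM in polysomes, against 47.8, 111 and 62.8 FPKM in RNPs, and in elongating spermatids at 89.6, 96.9 and 85.4 FPKM, against 25.8, 19.6 and 31.4 FPKM. Every polysome library lay above every RNP library of its stage. The highest round value, 583, came from the library labelled round replicate 2, in which early germ cell markers were also highest; their part in it was not tested. Elongating polysomes, at 90.6 ± 5.82 FPKM (SD, n = 3), lay below every pachytene and round polysome library.

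*Sycp2*, which encodes its partner in the lateral element, overlapped between fractions. It stood at 180.5, 198 and 86.3 FPKM in pachytene polysomes, against 65.0, 243 and 20.0 FPKM in pachytene RNPs. In round spermatids the values were 114, 119.7 and 149 FPKM in polysomes, against 106, 166 and 72.2 FPKM in RNPs, and in elongating spermatids 81.9, 94.2 and 48.8 FPKM, against 63.7, 29.3 and 40.1 FPKM. This held at all 3 stages, and the pachytene RNP libraries spanned 20.0 to 243 FPKM on their own.

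*Sycp1*, the transverse filament, had the highest value of the 8 genes, and that value rested on a fragment. Pachytene polysomes held 1893, 1948 and 320.1 FPKM, against 121, 169 and 9.54 FPKM in pachytene RNPs. In replicates 1 and 2 of the polysomes, 92.3% and 90.6% of the gene's FPKM sat on a single spliced transcript of 128 bases that joins 2 internal exons, 15 and 16 of the 33 in the annotated mRNA (chr3:102712829-102717409 of mm9, minus strand; the intron is chr3:102712891-102717343). The junction is shown because these few bases carry most of the *Sycp1* signal of 2 libraries; capitals mark the start of exon 16.
*Sycp1* exon 15 to exon 16: aatcaaatgaactagAAGAGATGACTAAAT
A transcript of 234 bases over the same junction held 58.9% of the gene's FPKM in round polysome replicate 3, and no other library had one. Without it, pachytene polysome replicates 1 and 2 stood at 146 and 184 FPKM. FPKM weighted by transcript length, in which a short fragment counts only for its bases, gave 144, 171 and 171 in pachytene polysomes, against 42.0, 84.8 and 9.22 in pachytene RNPs. By that measure the 3 polysome libraries lay within a narrow band above the 3 RNP libraries.

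**Figure D1:**
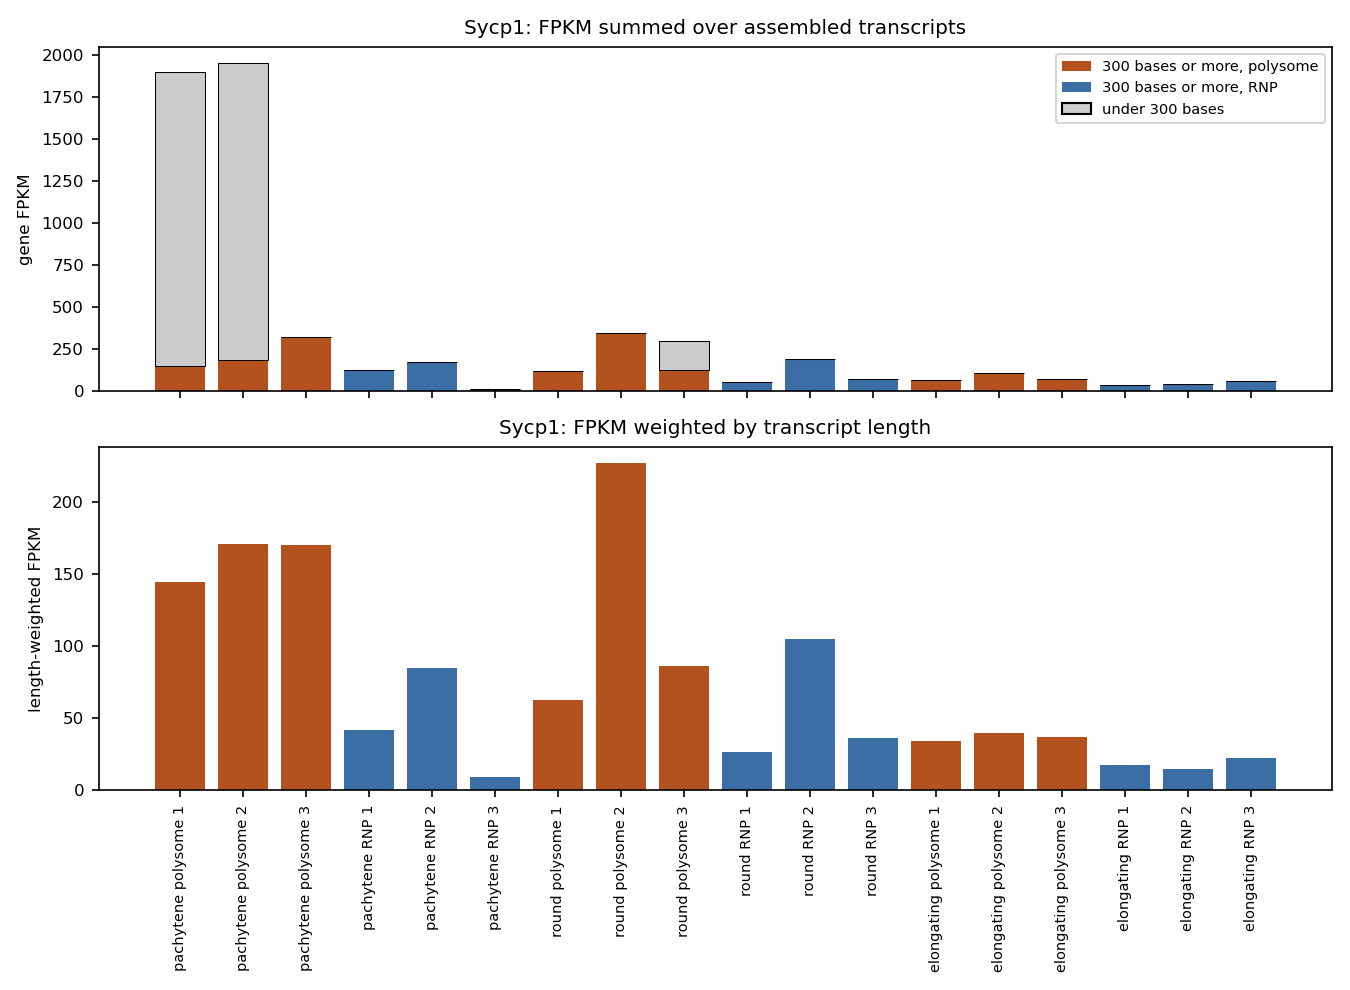
*Sycp1* in each library. The upper plot shows gene FPKM with the part from spliced transcripts under 300 bases in grey (1747 of 1893 FPKM in pachytene polysome replicate 1, 1764 of 1948 in replicate 2), and the lower plot shows length-weighted FPKM; polysome libraries are orange and RNP libraries blue, 3 of each per stage.

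*Sycp1* was also measured in the spermatid libraries. Round spermatids held 119.9, 342 and 293 FPKM in polysomes, against 50.2, 188 and 68.0 FPKM in RNPs, and both highest RNP and highest polysome values were those of round replicate 2. Elongating spermatids held 64.1, 105 and 68.5 FPKM in polysomes, against 31.8, 41.7 and 59.0 FPKM in RNPs. The elongating fractions did not overlap, and elongating polysomes lay below all pachytene and round polysome libraries. The assembly seldom spanned the gene: the longest *Sycp1* transcript of a library held a median of 16 of the 32 annotated introns, and the whole annotated chain was assembled in 1 library.

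Among the central element genes, *Syce1*, whose protein joins the transverse filaments at the centre of the complex, stood at 213, 123 and 175 FPKM in pachytene polysomes, against 146, 92.6 and 64.9 FPKM in pachytene RNPs. It stood at 150.3, 94.1 and 161 FPKM in round polysomes, against 123, 48.4 and 87.2 FPKM in round RNPs, and at 192, 168 and 172 FPKM in elongating polysomes, against 96.5, 69.8 and 125 FPKM in elongating RNPs. Only the elongating fractions did not overlap. In the round group the library labelled replicate 2 was the lowest in both fractions.

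*Tex12*, which encodes the partner that assembles with SYCE2 into fibres of the central element, was low at every stage. Pachytene polysomes held 32.3, 73.2 and 38.9 FPKM, against 15.7, 10.9 and 12.1 FPKM in RNPs. Round polysomes held 13.2, 26.0 and 24.3 FPKM, against 7.20, 24.2 and 10.1 FPKM in RNPs, and elongating polysomes 11.9, 8.51 and 10.3 FPKM, against 5.34, 2.50 and 2.73 FPKM in RNPs. The pachytene and the elongating fractions did not overlap, while the round fractions did, through the RNP library labelled replicate 2.

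*Syce2*, by contrast, was highest in elongating spermatids. It stood at 23.9, 40.7 and 20.1 FPKM in pachytene polysomes, against 41.4, 10.8 and 25.7 FPKM in pachytene RNPs, and at 36.8, 42.5 and 28.7 FPKM in round polysomes, against 37.8, 28.6 and 24.5 FPKM in round RNPs. Elongating spermatids held 277, 128 and 106 FPKM in polysomes, against 105, 67.2 and 106 FPKM in RNPs. All 6 elongating libraries lay above all 12 others, and the fractions overlapped at each stage. By length-weighted FPKM the values were 128, 65.5 and 72.1 in elongating polysomes, against 49.2, 30.8 and 45.9 in elongating RNPs, and the RNP values then overlapped those of round polysomes (35.1 to 45.0) and pachytene polysomes (19.9 to 41.5). In elongating polysome replicates 1 and 3, 53.8% and 49.8% of this FPKM came from transcripts that splice from *Syce2* past its annotated end into the span of *Gcdh*, a gene on the opposite strand. Pachytene RNP replicate 3 also had such a transcript, with 55.7% of its FPKM, and stood at 11.4 FPKM without it. Without those transcripts the elongating polysome values were 128, 128 and 53.1 FPKM, still above the 20.1 to 40.7 FPKM of pachytene polysomes. Annotated exons of *Gcdh* share no base with those of *Syce2*, and *Gcdh* itself reached at most 8.55 FPKM in any library.

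Of the HORMA genes, *Hormad1* stood at 69.6, 83.4 and 201 FPKM in pachytene polysomes, against 53.0, 69.1 and 10.1 FPKM in pachytene RNPs. Round polysomes held 97.2, 80.3 and 133 FPKM, against 42.6, 124 and 74.7 FPKM in RNPs, and elongating polysomes 53.4, 23.4 and 21.2 FPKM, against 12.6, 42.9 and 42.0 FPKM in RNPs. In summed FPKM only the pachytene fractions did not overlap, by a small margin (69.6 against 69.1 FPKM). Without spliced transcripts under 300 bases, round RNP replicate 3 stood at 22.3 FPKM and elongating RNP replicates 2 and 3 at 22.7 and 14.3 FPKM. By length-weighted FPKM pachytene polysomes held 83.8 to 233, against 11.8 to 69.7 in RNPs. By that measure the elongating fractions did not overlap either (21.6 to 28.8, against 9.94 to 14.1). The round fractions still did (50.5 to 221, against 18.9 to 59.8).

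*Hormad2* had the lowest polysome mean of the 8 at each stage. It stood at 12.8, 24.3 and 24.5 FPKM in pachytene polysomes, against 5.41, 9.36 and 8.31 FPKM in RNPs, and at 9.07, 14.7 and 19.4 FPKM in round polysomes, against 2.57, 8.47 and 8.58 FPKM in RNPs. Elongating polysomes held 4.86, 8.12 and 6.55 FPKM, against 14.5, 4.73 and 4.90 FPKM in RNPs. The fractions did not overlap at the first 2 stages and did in elongating spermatids.

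**Figure D2:**
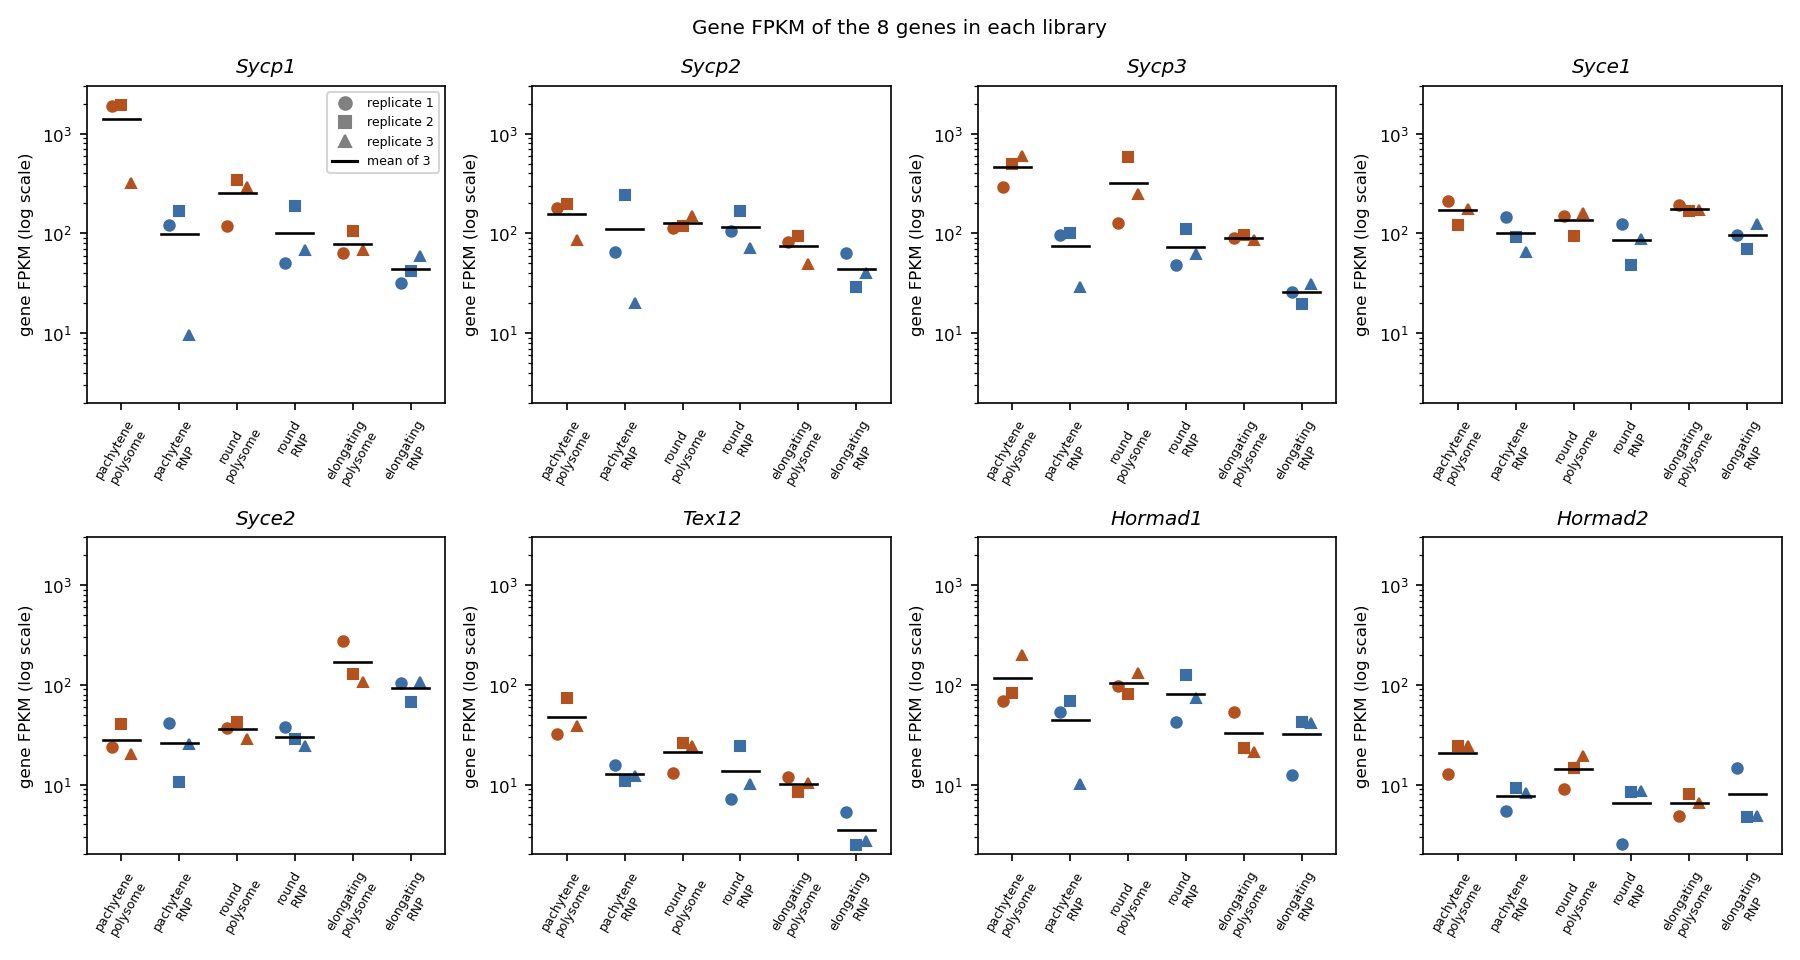
Gene FPKM of each gene in each library on a log scale, with the polysome group (orange) left of the RNP group (blue) at each stage; markers give the replicate number and bars the mean of 3. *Sycp3* lies higher in polysomes at all 3 stages, and *Syce2* is the one gene whose elongating libraries (67.2 to 277 FPKM) all lie above its other libraries in summed FPKM.

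Ordered by group mean, 6 of the 8 genes were highest in pachytene polysomes, with round polysomes next in all 6: *Sycp1*, *Sycp2*, *Sycp3*, *Tex12*, *Hormad1* and *Hormad2*. *Syce1* and *Syce2* were highest in elongating polysomes, *Syce1* at a mean of 177 FPKM, against 170 FPKM in pachytene polysomes, with overlap. By length-weighted FPKM *Syce1* was highest in pachytene polysomes (202.3, against 201.8 in elongating polysomes). Most neighbours in the orders by summed FPKM overlapped between libraries. The ranges lay apart between pachytene and round polysomes for *Tex12*, between round and elongating polysomes and between round and elongating RNPs for *Sycp3*, between elongating polysomes and elongating RNPs for *Sycp1* and *Tex12*, and between elongating RNPs and round polysomes for *Syce2*. Each gene was also set against the mean standardized log2(FPKM + 1) of the other 7 over the 18 libraries, as a description of libraries that share their depth and composition. Pearson's r was 0.91 for *Sycp3*, 0.87 for *Sycp1*, 0.77 for *Tex12*, 0.66 for *Sycp2*, 0.58 for *Hormad1*, 0.57 for *Hormad2*, 0.38 for *Syce1* and -0.37 for *Syce2*. Outside the 8, the genes most like the mean of their standardized profiles were *Tspan3* (r = 0.97), *Klhl7* (r = 0.97) and *9530068E07Rik* (r = 0.95), of 7080 genes with a mean FPKM of at least 10.

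Polysomes were then compared with RNPs in each cell type, which asks how far the mRNA of each gene lay in the translated fraction. In pachytene spermatocytes *Sycp1*, *Sycp3* and *Tex12* were higher in polysomes. The log2 fold change on the log2(FPKM + 1) scale was 4.14 ± 0.92 for *Sycp1* (SE, adjusted p = 0.0270), 2.72 ± 0.58 for *Sycp3* (adjusted p = 0.0241) and 1.75 ± 0.49 for *Tex12* (adjusted p = 0.0461). These are 3 of 8 genes called, all higher, beside 6.34% of all genes tested, or 6.16% higher. At an unadjusted p under 0.05 there were 5 of 8, beside 28.3% of all genes. The other 5 did not pass, at 1.61 ± 0.70 for *Hormad1*, 1.28 ± 0.54 for *Hormad2*, 1.07 ± 0.68 for *Sycp2*, 0.79 ± 0.46 for *Syce1* and 0.24 ± 0.50 for *Syce2*. Values did not overlap, with polysomes higher, for 5 of 8 genes, beside 29.5% of all genes. The median of the 8 was 1.45 and that of all genes tested was 1.01, so that a typical gene also stood higher in polysomes in FPKM as deposited.

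Median-ratio scaling, which moved the median of all genes from 1.01 to 0.18 in this comparison, left no call: *Sycp1* was at 2.99 (adjusted p = 0.275), *Sycp3* at 1.56 (adjusted p = 0.407) and *Tex12* at 0.62 (adjusted p = 0.855), and *Sycp2*, *Syce1* and *Syce2* turned to -0.08, -0.38 and -0.89. That scaling called 0.186% of all genes. Length-weighted FPKM called 6 of the 8, with *Hormad1*, *Hormad2* and *Syce2* added, beside 29.5% of all genes. With spliced transcripts under 300 bases left out, *Sycp1* was at 1.78 ± 0.82 (adjusted p = 0.150). *Sycp3* and *Tex12* then stayed called, beside 10.1% of all genes. No member was called without pachytene polysome replicate 2 (1.08% of all genes called) or without pachytene RNP replicate 3 (0.211%). There was 1 called without pachytene polysome replicate 1 (0.709%) or replicate 3 (0.955%).

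In round spermatids none of the 8 was called between fractions by limma, beside 0.327% of all genes. At an unadjusted p under 0.05 there was 1, *Sycp3* at 1.92 ± 0.58 (adjusted p = 0.187), beside 15.0% of all genes. Polysomes lay wholly above RNPs for 2 of 8 genes, *Sycp3* and *Hormad2*, beside 14.4% of all genes, and the median of the 8 was 0.70, that of all genes 0.65. Without both libraries labelled round replicate 2, *Sycp3* was at 1.68 (adjusted p = 0.205) and none was called, beside 0.675% of all genes. The labels give no pairing, but the libraries of this comparison were taken as paired by number from how their deviations correlate. With the number as a block shared by all 18 libraries none was called either, beside 0.396% of all genes. A paired fit of the round fractions alone was not run.

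In elongating spermatids none of the 8 was called, beside 1.6% of all genes, and 2 had an unadjusted p under 0.05, *Sycp3* and *Tex12*, beside 20.3%. *Sycp3* was at 1.81 ± 0.58 (adjusted p = 0.110). Polysomes lay wholly above RNPs for 4 of 8 genes (*Sycp1*, *Sycp3*, *Syce1* and *Tex12*), beside 36.9% of all genes, and the median of the 8 was 0.80, that of all genes 0.71. The fraction difference did not pass a test of change between stages for any of the 8, beside 0.0136% of all genes called for round minus pachytene, 0.00682% for elongating minus round and 0.0273% for elongating minus pachytene. At an unadjusted p under 0.05 these limma tests gave 0, 0 and 1 of the 8, beside 2.93%, 2.58% and 3.96% of all genes. The last was *Sycp1*, whose pachytene polysome values include the short fragment. A call in pachytene spermatocytes and none later is therefore not shown to be a difference between the stages.

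Polysomes were compared between stages to ask how the translated fraction differed after meiosis. Elongating polysomes held less *Sycp1*, *Sycp3* and *Tex12* and more *Syce2* than pachytene polysomes. The log2 fold change was -3.76 ± 0.92 for *Sycp1* (adjusted p = 0.0285), -2.27 ± 0.58 for *Sycp3* (adjusted p = 0.0352), -2.05 ± 0.49 for *Tex12* (adjusted p = 0.0256) and 2.48 ± 0.50 for *Syce2* (adjusted p = 0.0137). These are 4 of 8 genes called, beside 5.91% of all genes, with 3 lower beside 2.84% and 1 higher beside 3.07%. At an unadjusted p under 0.05 there were 6 of 8, beside 24.8%. *Hormad1* at -1.78 ± 0.70 (adjusted p = 0.129), *Hormad2* at -1.49 ± 0.54 (adjusted p = 0.105), *Sycp2* (adjusted p = 0.381) and *Syce1* at 0.09 ± 0.46 did not pass. Elongating libraries lay wholly below pachytene libraries for 5 of 8 genes, beside 22.8% of all genes, and wholly above for 1, *Syce2*, beside 15.9%. The median of the 8 was -1.64 and that of all genes -0.24.

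All 4 calls stood after median-ratio scaling, with adjusted p of 0.0332 for *Sycp1*, 0.0356 for *Sycp3*, 0.0493 for *Tex12* and 0.00697 for *Syce2*, beside 3.93% of all genes. Without spliced transcripts under 300 bases, *Sycp1* was at -1.40 ± 0.82 (adjusted p = 0.287) and the other 3 stayed called, beside 7.80% of all genes. Length-weighted FPKM called 5, with *Hormad1* (-2.45, adjusted p = 0.0272) and *Hormad2* (-1.94, adjusted p = 0.0342) added, *Syce2* still called at 1.65 (adjusted p = 0.0179) and *Sycp1* (-2.10, adjusted p = 0.0507) lost, beside 12.9% of all genes. None was called without elongating polysome replicate 1, beside 1.36% of all genes. There was 1 called without elongating polysome replicate 2 (1.93% of all genes) or 3 (1.40%) or pachytene polysome replicate 2 (1.06%) or 3 (1.42%). Other cells moved with this comparison: 8 Sertoli markers summed to 4.52 to 6.17 FPKM in elongating polysomes, with 6 of them listed at 0 in all 3 libraries, against 53.5 to 191 FPKM in pachytene polysomes, where *Rhox5* alone was at 0 throughout. The 6 Leydig markers summed to 11.7 to 29.5 FPKM in elongating polysomes, with *Lhcgr* at 0 in all 3, against 135 to 225 FPKM in pachytene polysomes. Both lists lay apart between the groups. Markers of early spermatocytes and spermatogonia summed to 37.6 to 69.3 FPKM in elongating polysomes, against 42.1 to 160 FPKM in pachytene polysomes, and overlapped. Their part in the result was not tested.

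**Figure D3:**
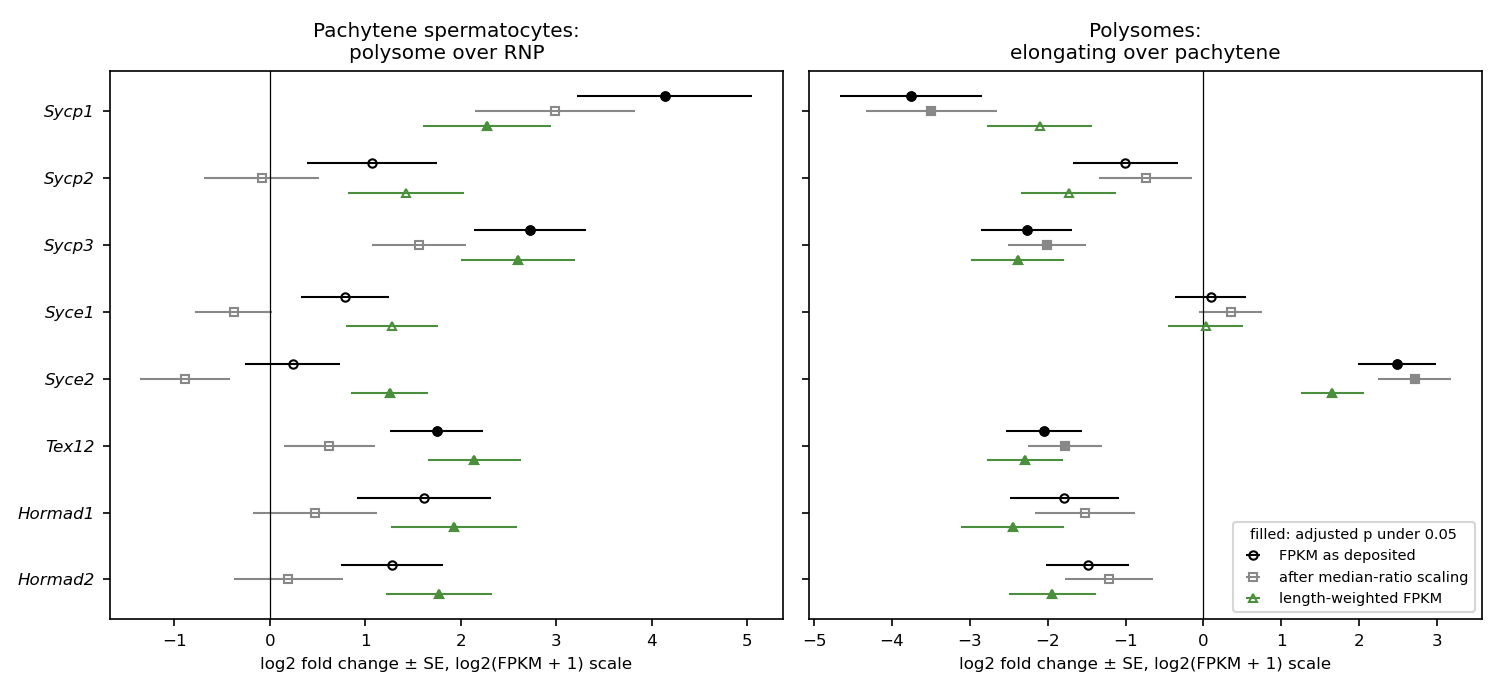
Log2 fold change of each gene with its SE, left for polysome over RNP in pachytene spermatocytes and right for elongating over pachytene polysomes, from FPKM as deposited (black), after median-ratio scaling (grey) and from length-weighted FPKM (green); filled markers passed an adjusted p of 0.05. On the left scaling moves every gene down and leaves 0 filled of 8; on the right the 4 genes filled in black are filled in grey as well.

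The steps between neighbouring stages gave no call among the 8. In polysomes, round minus pachytene had 2 at an unadjusted p under 0.05 (*Sycp1* and *Tex12*), beside 7.78% of all genes, and 0.157% of all genes were called. The *Sycp1* values here include the short fragment. Without transcripts under 300 bases they overlapped, at 146, 184 and 320 FPKM in pachytene polysomes, against 119.9, 342 and 120 FPKM in round polysomes. Round polysomes lay wholly below pachytene polysomes for 1, *Tex12*, beside 7.68%. Elongating minus round had 3 (*Sycp3*, *Hormad1* and *Syce2*), beside 15.6%, with 0.573% called. In that step elongating polysomes lay wholly below round polysomes for 6 of 8 genes and wholly above for *Syce1* and *Syce2*, beside 12.9% and 12.1% of all genes. *Syce2* was at 2.10 ± 0.50 (adjusted p = 0.0692).

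In RNPs no member was called at any step. Round minus pachytene had 0 at an unadjusted p under 0.05, beside 4.51% of all genes, and limma called 0.0% of all genes. Elongating minus round had 3, *Sycp3*, *Tex12* and *Syce2*, beside 8.57%, with 0.0818% called. Elongating RNPs lay wholly below round RNPs for 3 (*Sycp2*, *Sycp3* and *Tex12*), beside 10.2% of all genes, and wholly above for *Syce2*, beside 5.09%. Elongating minus pachytene had the same 3, beside 16.0%, with 0.689% called: *Syce2* at 1.95 ± 0.50 (adjusted p = 0.0774), *Tex12* at -1.66 ± 0.49 (adjusted p = 0.111) and *Sycp3* at -1.35 ± 0.58 (adjusted p = 0.271). Elongating RNPs lay wholly above pachytene RNPs for *Syce2*, beside 11.8%, and wholly below for *Tex12*, beside 7.38%. *Syce2* passed in this comparison after median-ratio scaling (1.96, adjusted p = 0.0349, beside 2.31% of all genes called higher) and from length-weighted FPKM (1.88, adjusted p = 0.0317, beside 0.993%). It also passed without pachytene RNP replicate 1 (2.37, adjusted p = 0.0364, beside 1.38% called in either direction). Elongating RNPs held 67.2 to 106 FPKM of *Syce2*, against 10.8 to 41.4 FPKM in pachytene RNPs.

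*Sycp3* transcripts came in 2 kinds. One removes the last intron (intron 8, chr10:87935526-87935649 of mm9, plus strand, 124 bases) and reads on into the last exon. The other ends 30 to 63 bases into that intron. The annotation has a retained-intron transcript with the first 7 introns spliced that runs on to the end of the gene. The intron-ending transcripts were on no annotated chain in replicate 3 of pachytene polysomes, round polysomes and round RNPs, nor in elongating polysome replicate 1. In the other libraries that had them they were on an annotated chain. The boundary is shown because the second kind carries about as much FPKM as the first in polysomes; capitals mark the intron in the first line and the last exon in the second.
*Sycp3* exon 8 into intron 8: gttatgatggaaactGTAAGTTCTATTTTA
*Sycp3* exon 8 into exon 9: gttatgatggaaactCAGCAGCAAGAGATG
Read in the frame of the annotated start codon, the spliced form has 254 codons before its stop, in the last exon. With the upstream exons as annotated, the form that enters the intron shares 237 whole codons and meets a TAA stop at intron bases 34 to 36, after 248 codons. The assembled end lay at or past that stop in 7 of the 13 libraries with this form.

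The intron-ending form was assembled in 9 of 9 polysome libraries and in 4 of 9 RNP libraries. Its share of *Sycp3* FPKM in polysomes was 49.6%, 49.7% and 41.4% in pachytene spermatocytes, 43.3%, 55.2% and 44.7% in round spermatids and 62.8%, 54.5% and 53.5% in elongating spermatids. In RNPs it was not assembled in any of the 3 pachytene libraries, made up 39.3% and 24.1% in round replicates 1 and 3 and none in replicate 2, and made up 32.6% and 56.9% in elongating replicates 2 and 3 and none in replicate 1. A share of 0 means that no such transcript was assembled, and RNP libraries held less *Sycp3* to assemble from (19.6 to 111 FPKM, against 85.4 to 595 FPKM in polysomes). Among RNP libraries, though, the form was missing at 95.4, 101, 29.2, 111 and 25.8 FPKM and present at 47.8, 62.8, 19.6 and 31.4 FPKM. The part of level in these shares was not tested. The form that splices the last intron, taken alone, still stood at 146, 249 and 348 FPKM in pachytene polysomes, against 95.4, 101 and 29.2 FPKM in pachytene RNPs. *Chpt1*, on the opposite strand, shares 660 exon bases with *Sycp3* and ran from 0 to 109 FPKM; the library kit marks strand, but whether the alignment used it is not given in the sources used here.

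**Figure D4:**
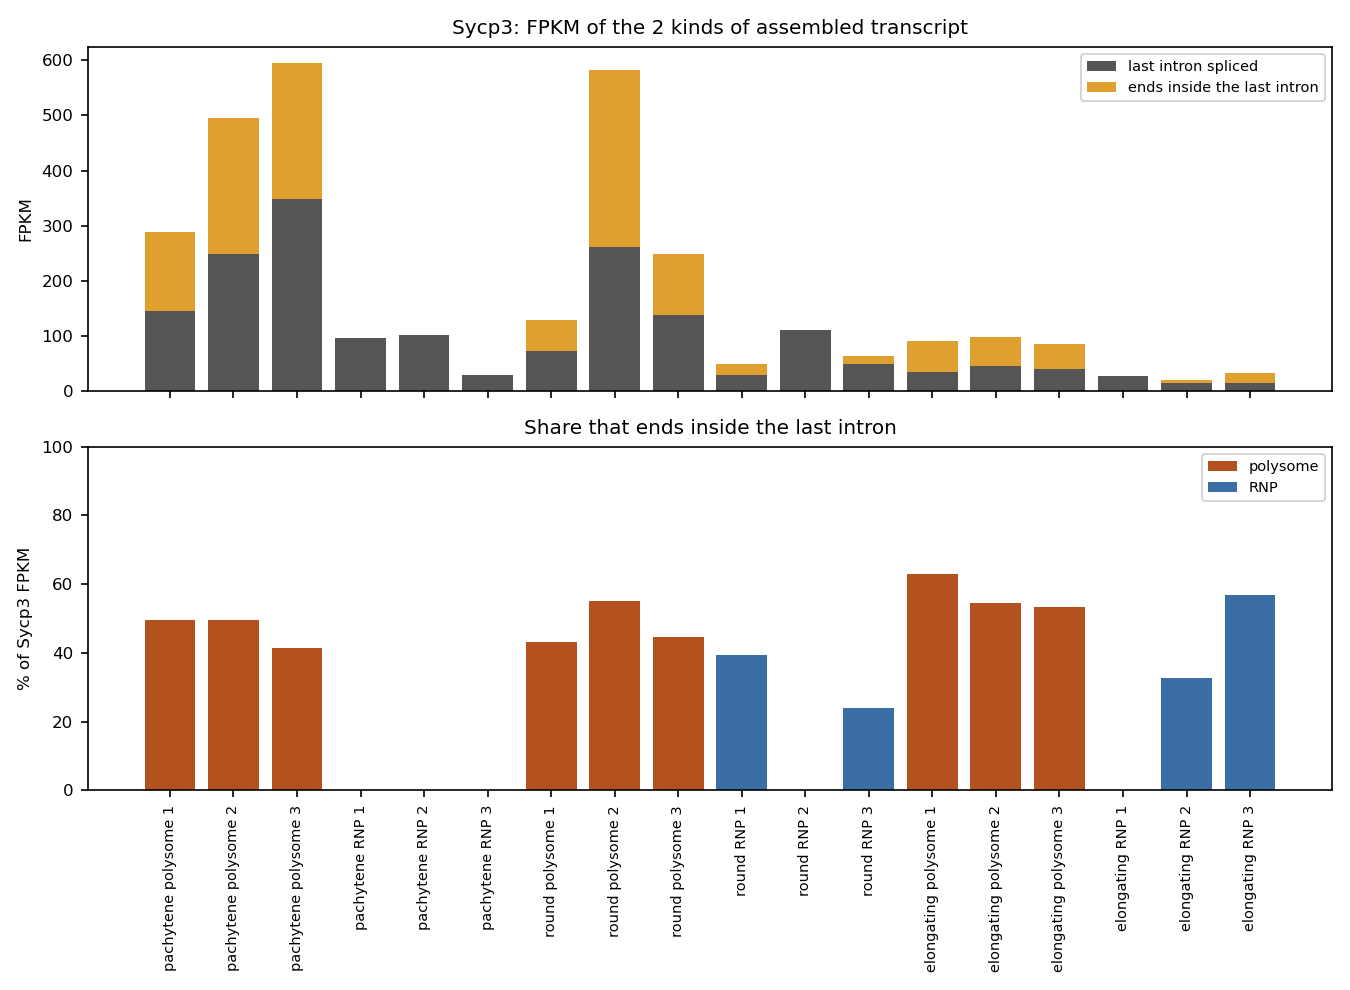
*Sycp3* in each library. The upper plot stacks the FPKM of transcripts that splice the last intron (grey) and of those that end inside it (yellow), and the lower plot gives the share of the second kind in percent; it is 41.4 to 62.8% in the 9 polysome libraries (orange) and 0 to 56.9% in the 9 RNP libraries (blue).

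The assembled end of the mRNA also differed between libraries. The 3′ UTR length was taken from the annotated stop codon to the end of the most abundant transcript that holds the last annotated intron. For *Syce2* it was 1015, 1127 and 1029 bases in pachytene polysomes, against 205, 964 and 205 bases in pachytene RNPs. It was 1109, 1037 and 1378 bases in round polysomes, against 626, 1034 and 583 bases in round RNPs, and 645, 223 and 1107 bases in elongating polysomes, against 223, 235 and 223 bases in elongating RNPs. The annotated 3′ UTRs of its 2 coding mRNAs with 5 exons are 1042 and 267 bases long. All 6 pachytene and round polysome libraries ended 1015 to 1378 bases past the stop codon, the 3 elongating RNP libraries within 235 bases, and the elongating polysome libraries in between or at either end.

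For *Sycp3* the assembled 3′ UTR was 519, 558 and 558 bases in pachytene polysomes, against 486, 402 and 266 bases in pachytene RNPs, and ran beyond the 277 annotated bases in all 9 polysome libraries and in 6 of 9 RNP libraries. *Sycp2* ended 1184, 1031 and 1033 bases past its stop codon in pachytene polysomes, against 1015, 1350 and 267 bases in pachytene RNPs. In elongating polysomes it ended at 654, 370 and 285 bases, and the annotated length is 1040 bases. *Sycp1* had 402, 319 and 321 bases in pachytene polysomes, against 326, 303 and 157 bases in RNPs. *Hormad2* had no such transcript in pachytene polysomes and 759, 968 and 737 bases in pachytene RNPs. It had 802 bases in round polysome replicate 1, against 748, 819 and 748 bases in round RNPs. *Tex12* had 417, 415 and 417 bases in pachytene polysomes, against 254, 414 and 215 bases in RNPs. *Syce1* had 696, 794 and 692 bases in pachytene polysomes, against 691, 471 and 475 bases in RNPs. Medians in round polysomes and round RNPs were 694 and 692 bases for *Syce1* and 278 and 324 bases for *Sycp1*. They were 414 and 254 bases for *Tex12*, 1022 and 295 bases for *Sycp2* and 533 and 377 bases for *Sycp3*. These lengths were not tested, and depth moved with them between the pachytene fractions, though with overlap. Coverage divided by FPKM is a ratio that grows with the number of reads. It ran from 1.53 to 2.20 in pachytene polysomes, against 1.20 to 1.59 in pachytene RNPs. In elongating libraries it ran from 1.83 to 1.95 in polysomes and from 1.71 to 2.26 in RNPs, overlapping the pachytene polysomes. The part of depth in these lengths was not tested.

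**Figure D5:**
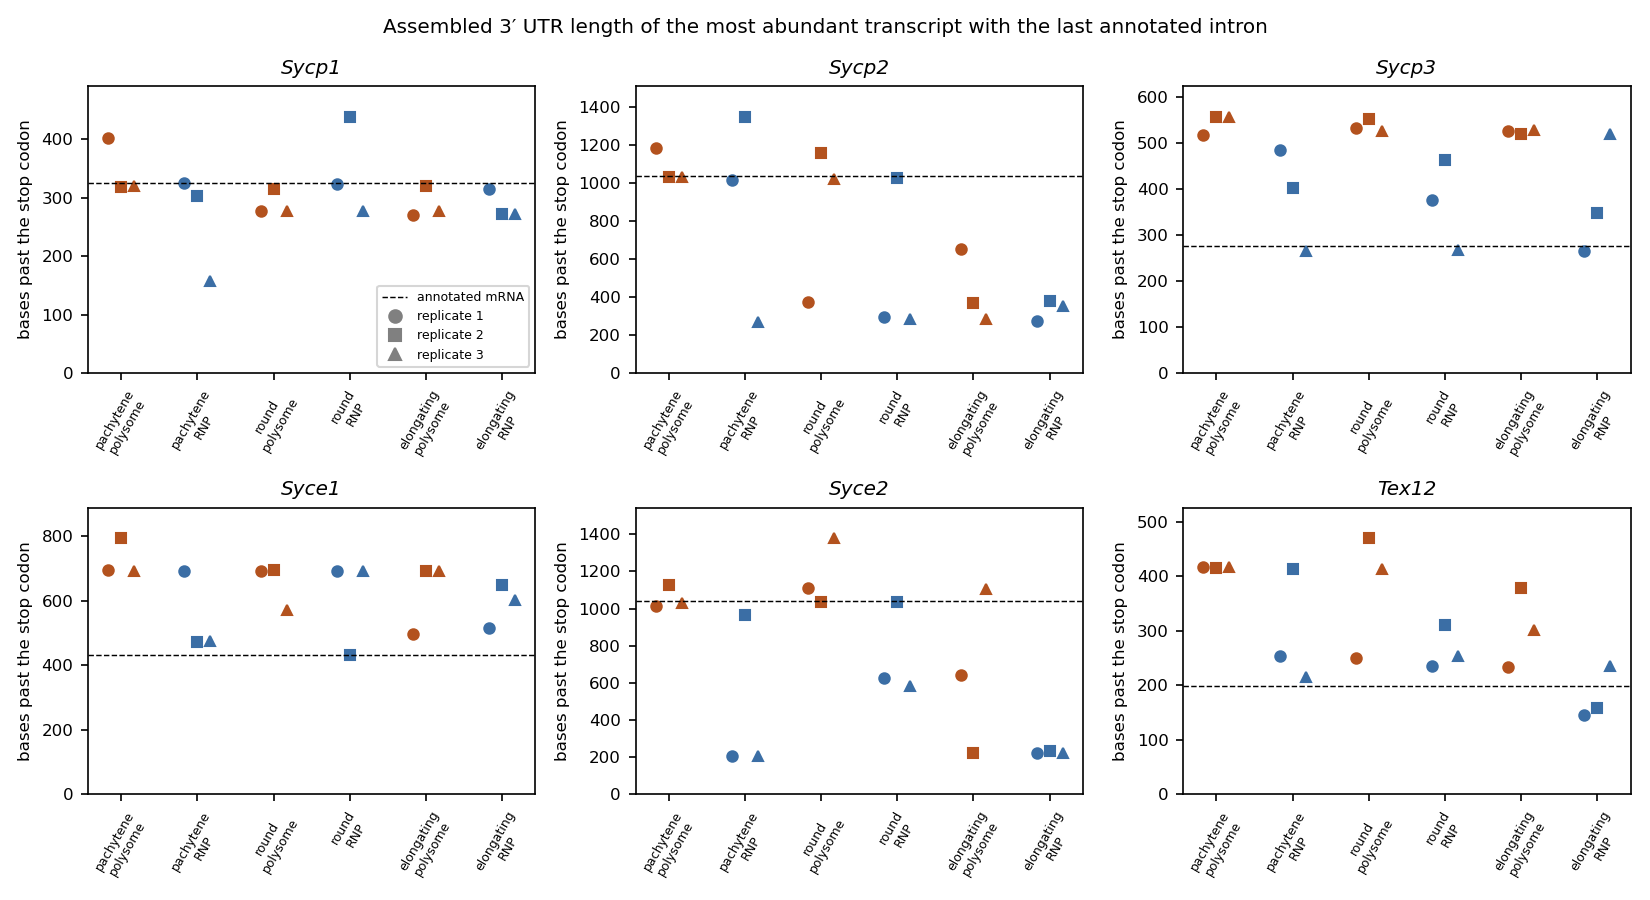
Assembled 3′ UTR length in bases of the most abundant transcript with the last annotated intron, for 6 genes, with polysome libraries (orange) left of RNP libraries (blue) at each stage and the annotated length as a dashed line. *Syce2* lies at 1015 to 1378 bases in pachytene and round polysomes and at 223 to 235 bases in elongating RNPs.

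The genes also differed in how whole they were assembled. *Syce1* was found on an annotated intron chain in 17 libraries, *Sycp3* in 17, *Syce2* in 18 and *Tex12* in 11, whereas *Sycp2* and *Hormad1* were never found on one. The longest *Sycp2* transcript of a library held a median of 22.5 of 43 annotated introns. FPKM of *Sycp1*, *Sycp2* and *Hormad1* is thus the sum of partial transcripts, each of which counts in full.

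Promoters of the 8 genes were searched for the E-box CACGTG, a palindrome bound by basic helix-loop-helix factors, in RefSeq windows from 250 bases before to 50 bases after each start (GRCm38.p6). All 8 genes matched, with 10 windows. The E-box was in windows of 5 genes (*Sycp1*, *Sycp3*, *Syce2*, *Tex12* and *Hormad1*), 6 of the 10 windows, beside 7.15% of 32851 promoters. The *Hormad1* windows chr3:95559427-95559726 and chr3:95559429-95559728 overlap and hold the same E-boxes, so they are not independent. The motif CNCCTCAG of the STRA8 and MEIOSIN factors, searched on both strands, was in those of 4 genes (*Sycp1*, *Syce2*, *Tex12* and *Hormad2*), 4 of the 10 windows, beside 7.94%. The E-box windows of the 4 genes called between stages are shown, with the motif in capitals and its first base counted from the start site. The *Sycp3* promoter held a further E-box at -43, which is not shown.
*Sycp1*, chr3:102936051-102936350, minus strand, at -94: tagagaacccggCACGTGggaagggaaatc
*Sycp3*, chr10:88459337-88459636, plus strand, at -64: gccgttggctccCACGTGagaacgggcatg
*Syce2*, chr8:84872008-84872307, plus strand, at -88: cgtttcattcagCACGTGctcggggcgggg
*Tex12*, chr9:50561219-50561518, minus strand, at -93: ccgcgagactgtCACGTGgctcgcgcgctg
The E-box was in the promoters of genes that were lower and of the gene that was higher in elongating polysomes.

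Of a list of 21 partner genes of synapsis and the meiotic axis, 19 had a value and were tested; *Rec114* and *Sycp2l* had none. In pachytene spermatocytes 3 of 19 were higher in polysomes and none lower, beside 6.34% of all genes called: *Ccdc79*, which encodes the telomere attachment protein TERB1, at 66.0 ± 21.5 FPKM in polysomes, against 13.2 ± 2.31 FPKM in RNPs (SD, n = 3 each), *Spdya*, which encodes the CDK2 activator Speedy A, at 119 ± 19.2 FPKM, against 34.3 ± 17.3 FPKM, and *Sun1*, a nuclear envelope protein of the telomere link, at 110 ± 47.5 FPKM, against 31.4 ± 29.1 FPKM. *Ccdc79* was the 1 partner called in round (3.15 ± 0.43, adjusted p = 0.00222) and in elongating spermatids (2.97 ± 0.43, adjusted p = 0.00257), and both calls stood after median-ratio scaling, at 2.41 and 2.14. None of the 3 pachytene calls did, with *Ccdc79* at 1.08 (adjusted p = 0.555). From length-weighted FPKM *Ccdc79* was not called in round spermatids (1.81, adjusted p = 0.0936), and stayed called at 1.83 in pachytene spermatocytes (adjusted p = 0.00815) and at 1.72 in elongating spermatids (adjusted p = 0.0341).

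*Stag3* and *Smc1b*, cohesin subunits of the axis and the most abundant partners at a mean of 207 and 102 FPKM over all libraries, were called in no comparison of fractions. None of the 19 partners was called between elongating and pachytene polysomes by limma, beside 5.91% of all genes, with 3 at an unadjusted p under 0.05, beside 24.8%. The difference between this list and the 8 genes was not tested. The median over the 19 was -0.31, against -1.64 over the 8 and -0.24 over all genes. *Stag3* averaged 233 ± 90.7 FPKM in elongating polysomes, against 310 ± 161 FPKM in pachytene polysomes, and *Smc1b* 131 ± 44.4 FPKM, against 90.1 ± 36.7 FPKM (SD, n = 3 each).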

How the data were processed

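Large RNA was sequenced from 18 stranded libraries. The authors used the FASTX-Toolkit on the reads, TopHat2 for alignment (mm9) and Cufflinks for an assembly of each library on its own; versions are not given in the sources used here. The deposited value is an FPKM, other than a count, held in the attribute text of the transcript's line and not scaled between libraries. Read counts were not used here, so depth is known only through the ratio of coverage to FPKM (1.20 to 2.26).

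Spliced transcripts were matched to GENCODE vM1 genes by strand and shared junctions, and gene FPKM is their sum. Length-weighted FPKM multiplies each transcript by its length, adds stranded single-exon fragments and divides by the longest annotated transcript. Genes reaching an FPKM of 1 in 3 or more libraries entered limma 3.58.1 (R 4.3.3, trend, two-sided) on log2(FPKM + 1), in 1 model of 6 groups, with Benjamini-Hochberg adjustment over all genes and calls under 0.05. limma was tested on simulated data. Tables were made with Python 3.11.15, numpy 2.4.6 and pandas 2.3.3. A transcript missing from a library was taken as 0.

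Whether replicate numbers pair the libraries was judged from how deviations from the group means correlate. All exceeded 0.1 for the round fractions (0.53, 0.66 and 0.20) and for round against pachytene RNPs (0.40, 0.60 and 0.12), which were taken as paired. Both libraries labelled round replicate 2 stood apart from their groups, and these correlations cannot tell that from pairing. The 8 genes, the partner list and the markers were chosen with earlier results of these data known. All 8 genes are named. Of the partners, the 2 most abundant and those called with the largest fold changes are named. The likeness rule takes the 3 highest r.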

Additional observations from a re-analysis of the deposited data

How the results depend on the processing

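Alternatives were other filters, a pseudocount of 0.1, median-ratio and quantile scaling, fits limited to the libraries of a comparison, a replicate block, each library left out, both libraries labelled round replicate 2 left out, annotated intron chains only and length-weighted FPKM; leaving out spliced transcripts under 300 bases was chosen after seeing the data. For polysome minus RNP in pachytene spermatocytes the 3 called genes became 6 with length-weighted FPKM (29.5% of all genes called). They became 0 with median-ratio scaling (0.186%), quantile normalization (0.143%), only the libraries compared (0.962%) and annotated chains only (0.827%). The count ranged from 0 to 3 as each library was left out, beside 0.211% to 10.7% of all genes. For elongating minus pachytene polysomes the 4 became 0 with annotated chains only, beside 3.87% of all genes. The count ranged from 0 to 3 as each library was left out, beside 1.06% to 5.80%. For elongating minus pachytene RNPs, 0 became 1 (*Syce2*) with length-weighted FPKM, median-ratio scaling, the replicate block and short transcripts left out. Those fits called 1.30%, 2.97%, 5.43% and 1.10% of all genes, in that order. The count ranged from 0 to 1 as each library was left out, beside 0.123% to 1.38%. For polysome minus RNP in elongating spermatids 0 became 1 with only the libraries compared, where 15.9% of all genes were called. For elongating minus round polysomes 0 became 1 with the replicate block, where 4.32% of all genes were called. The block changed no other count of calls. Outside the 2 comparisons taken as paired, libraries were taken to share only a number. *Sycp2* and *Hormad1* were on an annotated chain in no library and *Sycp1* in 1, so that alternative holds fewer values; other causes were not tested.

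Directions turned in polysome minus RNP of pachytene spermatocytes for *Sycp2* (-0.083) under median-ratio scaling, *Syce1* (-0.38 under median-ratio scaling, -0.24 under quantile normalization) and *Syce2* (-0.89 under both, and from -0.27 to 0.66 as each library was left out, below 0 without pachytene polysome replicate 2 or pachytene RNP replicate 2). They turned in elongating minus pachytene polysomes for *Syce1* (-0.34 under quantile normalization, and from -0.12 to 0.27 as each library was left out, below 0 without pachytene polysome replicate 2) and in polysome minus RNP of elongating spermatids for *Sycp3* (-0.36 on annotated chains only). None of these was called. Without counts, no limit of detection can be given for a library.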
